A study of Homo sapiens with 6 samples.

Results

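MT1X and MT2A are the genes of metallothionein 1X and metallothionein 2A, and they were chosen by symbol from the table deposited with a study of fulvic acid. They are 2 of the 459 genes in that table. The study measured RNA from SK-OV-3 cells, a widely used human line derived from an ovarian carcinoma and labelled wild type. Cells were kept for 48 h either without treatment (control, 3 libraries) or with fulvic acid (FA) at 100 µg/ml (3 libraries). FA is a water-soluble fraction of humic substances that can bind metal ions. All 6 libraries came from this single line. Whether libraries 1 to 3 of a group are separate cultures is not stated, so p-values rest on a spread between libraries that may be technical. The table holds only genes that passed the authors' limits, with log2 fold changes of 1.00 or more in size and a false discovery rate (FDR) of at most 0.00977. Both genes were thus listed because they differed between the groups, and the tests below give their size and spread, not independent evidence of a difference.

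Metallothioneins are small cytosolic proteins in which cysteines hold zinc, copper and cadmium ions in clusters. They buffer free zinc, protect cells from toxic metals and react with oxidants. Their genes are classic targets of MTF1, a zinc-sensing transcription factor that enters the nucleus when zinc is plentiful and binds metal response elements in their promoters. Glucocorticoids, cytokines and oxidative stress also induce MT2A, which is commonly the most abundant member in human cells.

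With FA, both metallothioneins fell. By mean FPKM, the authors' fragment level per gene length and library size, MT2A dropped to 17.1% of its control level and MT1X to 23.4%. In neither gene did any FA library reach the lowest control library, as in all listed genes that fell: the groups did not overlap in 100% of the 459, and 74.5% were lower with FA. Neither the direction nor the separation sets the pair apart. No gene on fixed lists of zinc transporters, copper handling genes or MTF1 targets outside the metallothioneins was in the table.

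The coding sequences are shown because they carry the metal-binding cysteines and because their likeness bears on how reads can be assigned. Both are printed 5′ to 3′ from the transcripts of GENCODE release 29 (GRCh38), with cysteine codons (TGC or TGT) in capitals.
MT2A coding sequence: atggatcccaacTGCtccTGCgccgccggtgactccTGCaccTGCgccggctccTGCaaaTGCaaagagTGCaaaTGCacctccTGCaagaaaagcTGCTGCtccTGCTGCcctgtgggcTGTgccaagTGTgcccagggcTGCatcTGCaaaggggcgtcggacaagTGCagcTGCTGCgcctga
MT1X coding sequence: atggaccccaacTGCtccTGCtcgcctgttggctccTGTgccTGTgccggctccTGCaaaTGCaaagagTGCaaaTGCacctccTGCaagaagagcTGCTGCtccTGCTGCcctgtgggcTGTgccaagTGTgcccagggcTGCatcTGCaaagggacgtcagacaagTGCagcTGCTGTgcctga
Each is 186 bases long and has 61 codons before the stop, of which 20 encode cysteine (32.8%), all 20 at the same places in both. The 2 sequences have 172 of 186 bases in common (92.5% identity). Against 8 other metallothionein genes with a coding sequence of the same length, identity ran from 88.7% to 93.0% for MT1X and from 88.7% to 95.2% for MT2A, with MT1G the closest to MT2A. By this measure MT1X is closer to MT2A than to its other relatives except MT1H (93.0%).

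The promoters are shown because MTF1 acts there. They are given 5′ to 3′ from RefSeq on GRCh38.p14, from 250 bases before the RefSeq transcription start to 50 bases into the transcript. Capitals mark matches on either strand to the core of the metal response element, searched as TGCACNC or TGCGCNC. A match on the opposite strand reads as its reverse complement.
MT2A promoter (chr16:56608334-56608633, plus strand): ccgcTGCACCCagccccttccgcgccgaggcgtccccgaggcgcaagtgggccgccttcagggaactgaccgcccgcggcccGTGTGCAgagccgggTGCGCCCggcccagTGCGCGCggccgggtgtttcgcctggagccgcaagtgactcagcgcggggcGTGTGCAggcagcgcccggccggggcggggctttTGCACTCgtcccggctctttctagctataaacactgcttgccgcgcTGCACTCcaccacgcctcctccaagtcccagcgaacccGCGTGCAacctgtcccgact
MT1X promoter (chr16:56682220-56682519, plus strand): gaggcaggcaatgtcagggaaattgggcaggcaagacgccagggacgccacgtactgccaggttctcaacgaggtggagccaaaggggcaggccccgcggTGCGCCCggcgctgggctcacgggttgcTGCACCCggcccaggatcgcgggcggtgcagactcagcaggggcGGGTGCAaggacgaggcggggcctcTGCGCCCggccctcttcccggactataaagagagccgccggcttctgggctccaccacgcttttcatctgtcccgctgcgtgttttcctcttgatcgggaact
The MT2A window held 8 matches, 5 on the gene's strand and 3 on the other, and 7 of the 8 lay before the start. The MT1X window held 4, 3 on the gene's strand and 1 on the other, all before the start. Of 35116 promoter windows of this length, 29.6% held at least 1 match, 0.601% at least 4 and 0.0199% at least 8. Both promoters are thus rich in the element by the standard of these windows, MT2A more so. GC content was 72% in the MT2A window and 67% in the MT1X window, and the shares are not matched for base composition.

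Other promoter elements were less frequent. A TATA box, searched as TATAAA, was found once in each, starting at position -29 in MT2A and -30 in MT1X, counted from the transcription start, and 11.5% of all windows held one. The GC box GGGCGG, which SP1 binds, occurred 2 times in each (26.7% of windows held as many), and 1 of the MT1X matches overlapped a metal response element. TGACTCA, the site of AP-1, was found once in MT2A, at position -104, and had no match in the MT1X window (4.95% of windows held one). The AHR core GCGTG, searched because the study's title names the AHR target CYP1A1, occurred 3 times in MT2A and 2 times in MT1X. Of all windows, 36.5% held at least 1, 12.7% at least 2 and 4.3% at least 3, and 2 of the MT2A matches overlapped a metal response element. Such matches describe the letters only, since binding was not measured.

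MT2A (ENSG00000125148, chromosome 16, positions 56608199 to 56609497, plus strand, GRCh38) and MT1X (ENSG00000187193, chromosome 16, positions 56682424 to 56684196, plus strand) lie in the metallothionein cluster, 72.9 kb apart. GENCODE release 29 places 11 protein-coding metallothionein genes and 5 pseudogenes there. MT2A stands toward the left of the cluster and MT1X at its right end, so the pair are not neighbours: MT1E, MT1M, MT1A, MT1B, MT1F, MT1G and MT1H lie between them. Of the 12 genes on the fixed list of the family, which adds MT1HL1 from outside the cluster, MT1X and MT2A were in the table. The other 10 were not analysed here, and their absence from the table does not say whether they were expressed or changed.

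**Figure D1:**
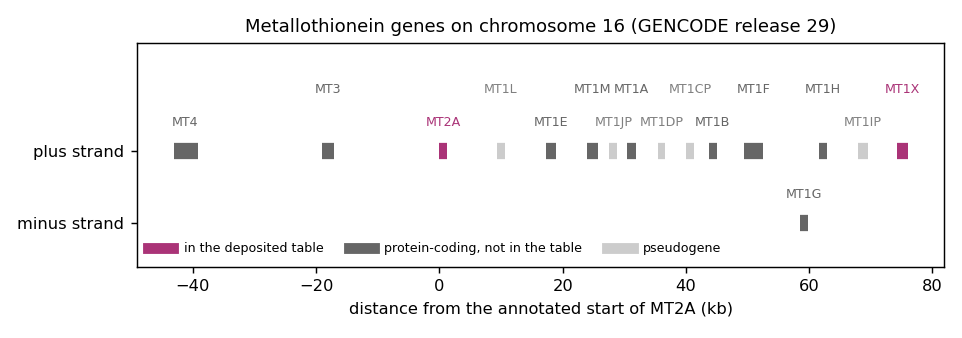
Metallothionein genes on chromosome 16, drawn to scale by distance in kb from the annotated start of MT2A, on the plus strand (upper row) or minus strand (lower row). The 2 genes of the deposited table are in purple, the 9 other protein-coding genes in dark grey and the 5 pseudogenes in light grey. The 2 listed genes lie 72.9 kb apart with other family members between them.

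MT2A was the more abundant of the pair. In deposited FPKM, MT2A stood at 85.8, 121.0 and 116.7 in control 1, 2 and 3 and at 21.3, 18.2 and 15.96 in FA 1, 2 and 3. Control 1 was the lowest of its group, the FA libraries were close together, and the groups were far from overlapping. The means were 107.8 ± 19.2 FPKM in control and 18.5 ± 2.7 FPKM with FA (SD, n = 3 each). The counts behind them were 2922, 4627 and 4338 in control and 669, 638 and 638 with FA, so counting error was at most 3.96% in any library and most of the spread was not counting error. By FPKM, MT2A ranked 15 of 459 listed genes in control and 59 with FA, where the median listed gene had 2.34 and 1.48 FPKM.

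MT2A fell 5.82-fold (log2 fold change -2.54, SE 0.18; edgeR quasi-likelihood test, adjusted p = 1.6e-07 over 459 genes). In the authors' deposited table its log2 fold change was -2.49 with an FDR of 4.7e-38. By the authors' log2 fold change this was the decrease of rank 30 among 342 lower genes, whose median was -1.36. Among the 285 lower genes with an Ensembl identifier that averaged 50 counts or more it ranked 18. MT2A thus combined a high control level with a decrease well above the typical size in the table.

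MT1X was lower in level throughout. Its FPKM was 6.33, 9.34 and 8.995 in control 1, 2 and 3 and 2.39, 2.27 and 1.11 in FA 1, 2 and 3. Control 1 was again the lowest control, and FA 3 was the lowest library of all. The means were 8.22 ± 1.6 FPKM in control and 1.92 ± 0.71 FPKM with FA (SD, n = 3 each), so the relative spread was 20.1% of the mean in control and 36.9% with FA. Counts were 127, 212 and 197 in control and 44, 50 and 29 with FA, where counting error alone is 14.1% to 18.6% per library. The FA level of MT1X is therefore known less precisely than that of MT2A.

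MT1X fell 4.13-fold (log2 fold change -2.04, SE 0.29; edgeR quasi-likelihood test, adjusted p = 2.2e-05 over 459 genes). The authors' deposited table gives -1.99 with an FDR of 1.5e-07, rank 70 of the 342 lower genes. Scaling the libraries by TMM over the listed genes, which sets the typical listed gene near no change and so raises the median log2 fold change by 1.24, left both genes lower but by less. The log2 fold change was then -1.30 for MT2A (edgeR adjusted p = 2.4e-05) and -0.80 for MT1X (edgeR adjusted p = 0.038). In RNA from whole cultures, fewer cells that express a gene and less RNA per cell cannot be told apart.

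**Figure D2:**
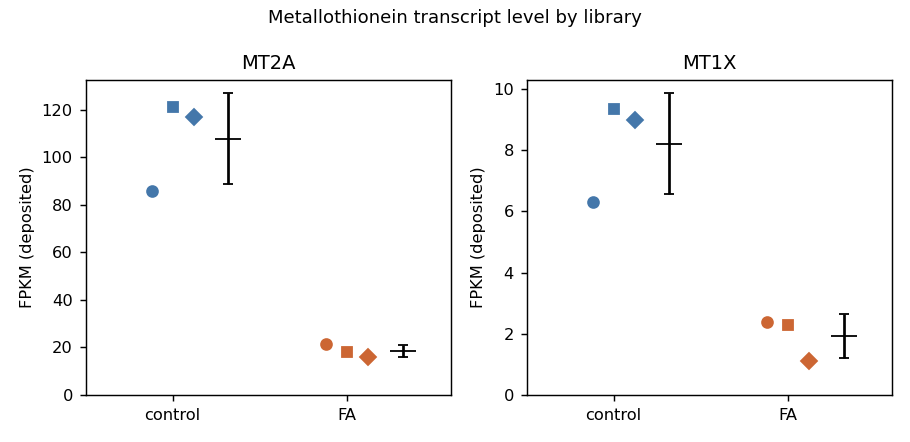
FPKM of MT2A (left) and MT1X (right) in each library, with circles, squares and diamonds for libraries 1, 2 and 3 of each group, and a bar for the mean with SD (n = 3). MT2A lies between 85.8 and 121.0 in control and between 15.96 and 21.3 with FA, and MT1X between 6.33 and 9.34 and between 1.11 and 2.39.

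**Figure D3:**
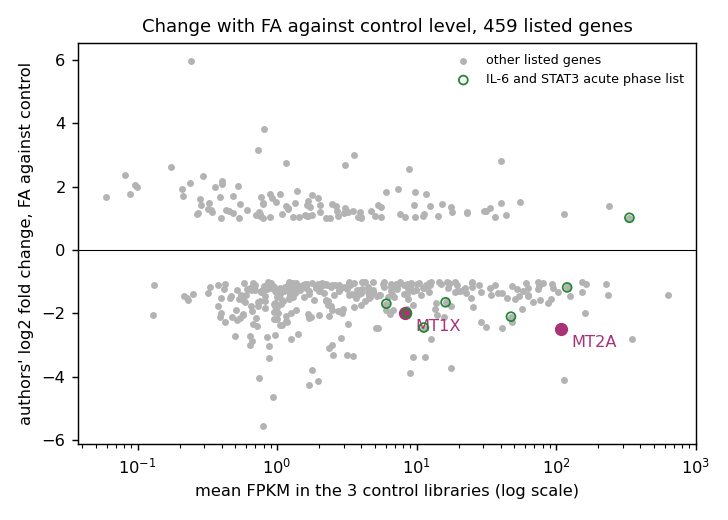
The authors' log2 fold change of FA against control (vertical axis) by mean control FPKM (horizontal axis, log scale) for all 459 listed genes, with MT2A and MT1X in purple and the 7 listed genes of the IL-6 and STAT3 acute phase list ringed in green. The empty band around 0 is the authors' limit on the fold change. MT2A stands at 107.8 FPKM and -2.49, and MT1X at 8.22 FPKM and -1.99.

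Within the control group the genes moved in step. For each MT1X count, control 1 had 23.0 MT2A counts (95% interval 19.3 to 27.7). Control 2 had 21.8 (19.0 to 25.2) and control 3 had 22.0 (19.1 to 25.5). The ratios were alike although both genes were lower in control 1 than in the other controls. With FA the ratio was 15.2 in FA 1 (95% interval 11.2 to 21.1), 12.8 in FA 2 (9.56 to 17.4) and 22.0 in FA 3 (15.2 to 33.1). The intervals are exact binomial (Clopper-Pearson) and cover counting error only. Each control interval is wider than the gap between the control ratios, so the counts do not resolve how closely the controls agree. FA 1 and FA 2 lay below all 3 controls, while FA 3 was within the control range, so the groups overlapped. The overlap was narrow and rests on 29 MT1X counts in FA 3.

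On the log2 scale the ratio was 4.48 ± 0.041 in control and 4.02 ± 0.40 with FA (SD, n = 3 each), a difference of -0.46. Given the intervals, the small control SD may understate the spread of that group. An exact permutation test, two-sided, gave p = 0.2, where 3 libraries against 3 cannot go below 0.1. The data therefore do not show that the genes fell by different factors, nor that they fell by the same factor. The value leans on single libraries, at -0.68 without FA 3 and -0.28 without FA 2.

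**Figure D4:**
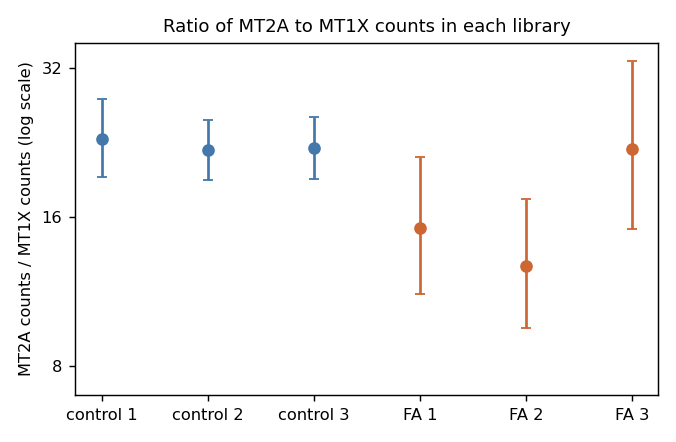
MT2A counts divided by MT1X counts in each library (vertical axis, log scale), with 95% exact binomial intervals that cover counting error only. The 3 control libraries lie between 21.8 and 23.0, FA 1 and FA 2 at 15.2 and 12.8, and FA 3 at 22.0.

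The assignment of reads is firmer for MT2A than for MT1X. Counts and FPKM together imply that the authors used a length of 783 to 786 bases for MT2A in every library, which is that of an annotated transcript of 786 bases. For MT1X the implied length was 462 to 465 bases in the controls and in FA 1, but 493 in FA 2 and 515 in FA 3, against annotated transcripts of 450, 538, 549 and 1727 bases. FPKM of MT1X thus rests on a length that differs between libraries, and for this reason the edgeR fold changes are fitted to counts. The MT1X means, percentages and spreads given in FPKM above do carry this difference. By the edgeR fit on counts, MT1X with FA was at 0.242 of its control level. The 786-base MT2A transcript begins 385 bases before the RefSeq start, and a shorter length would raise the FPKM of MT2A in proportion, in all libraries alike.

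Of the 1773 exonic bases of MT1X, 18.1% are also exonic in AC026461.1, a non-coding transcript on the same strand, whereas MT2A shares no exonic base with another gene. Of all 50-base stretches of the 450-base MT1X transcript, 45.1% also occur in the transcripts of another gene, 29.2% in AC026461.1 and 11.7% in MT1G. For the 786-base MT2A transcript the share was 4.88%. Over all annotated transcripts of each gene the shares were 18.3% for MT1X and 3.02% for MT2A. Leaving out AC026461.1, the MT1X shares were 16% for the 450-base transcript and 3.64% over all its transcripts. The 50 bases were a fixed setting, not taken from the length of the reads. How the authors' counting treated such reads is not given in the sources used here, so the MT1X counts may hold reads of other genes or lack some of its own.

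Control 1 stood apart from the other controls in more than these genes. Across 371 annotated genes, which are not independent replicates, the Spearman correlation of GC content with each library's departure from its group mean was -0.76 in control 1, 0.37 in control 2 and 0.67 in control 3. On the log2 scale MT2A deviated by -0.31 in control 1 and MT1X by -0.36, lower than all but 14.1% and 10.05% of the 418 genes averaging 50 counts or more. By the longest transcript, the measure used for that correlation, GC content was 53.9% in MT2A and 53.7% in MT1X, against a median of 51.9%. By the transcript nearest the implied length, GC content was 63% in MT2A and 50.9% in MT1X, so the pair differ on that measure. Without control 1 the log2 fold changes were -2.68 for MT2A and -2.20 for MT1X, slightly larger than with it. In FA 3 the MT1X deviation of -0.64 was lower than all but 1.67% of these genes. Its 29 counts there carry a counting error of 18.6%, and the genes compared were not matched for count level. Without FA 3 the MT1X log2 fold change was -1.77 (edgeR adjusted p = 3.6e-05).

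The genes whose profile over the 6 libraries was most like that of each metallothionein came from elsewhere. Likeness was the root mean square difference of log2 levels, each centred on its mean over the 6 libraries, among 417 other genes averaging 50 counts or more. The nearest to MT2A were KRT5, a keratin of basal epithelium (0.12), SPARC, a matrix glycoprotein (0.15), and GADD45B, a stress and growth arrest gene (0.17), against a median of 0.71. KRT5 fell from 29.1 ± 5.0 to 5.74 ± 0.67 FPKM and GADD45B from 48.3 ± 5.8 to 9.46 ± 1.4 FPKM, with edgeR adjusted p of 2e-07 and 1.7e-07.

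The nearest to MT1X were ACOX2, a peroxisomal oxidase of bile acid intermediates (0.094), MCM5, a subunit of the replicative helicase (0.19), and BIRC7, an inhibitor of apoptosis (0.20), against a median of 0.59. ACOX2 fell from 2.72 ± 0.32 to 0.684 ± 0.25 FPKM (edgeR adjusted p = 1.5e-05), with 76, 95 and 50 counts in FA 1, 2 and 3. Like MT1X it was lowest in FA 3. BIRC7 fell from 3.24 ± 0.85 to 0.612 ± 0.18 FPKM (edgeR adjusted p = 8.4e-06). The metallothioneins were at a distance of 0.33 from each other, rank 25 for MT2A and rank 24 for MT1X. The size of the fall dominates this measure in all 6 libraries, so it describes similar levels of change and no more.

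**Figure D5:**
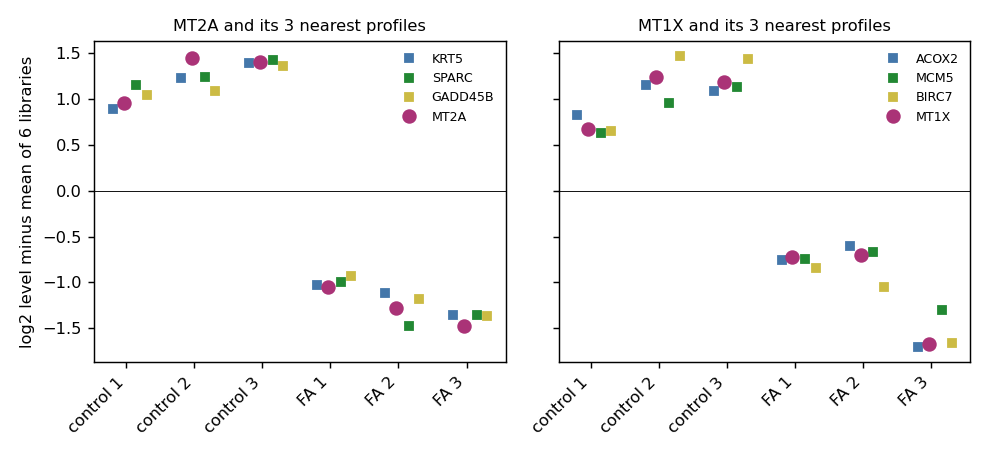
Log2 level in each library minus the mean over the 6 libraries for MT2A (left) and MT1X (right, purple circles), each with the 3 genes of nearest profile (squares). All genes shown lie above 0 in the control libraries and below 0 with FA, and the 4 genes of the right panel are lowest in FA 3.

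Other genes of metal handling were looked up from the fixed lists. None of 11 MTF1 and target genes, 24 zinc transporters (the SLC30 exporters and SLC39 importers), 17 genes of copper handling or 17 of glutathione synthesis and use was listed. Of 20 gene symbols of iron handling, LCN2 was listed, and it rose. LCN2 encodes lipocalin 2, which carries iron bound to siderophores. It went from 284.5, 349.3 and 373.3 FPKM in control to 646.0, 684.2 and 630.0 with FA (1.95-fold; edgeR adjusted p = 1.7e-05), opposite in direction to the metallothioneins. The table cannot show whether the absent genes were stable or merely below the authors' limits.

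Of 14 genes of heat shock and oxidative stress that metals can also induce, 2 were listed and both fell. Since 74.5% of all listed genes were lower with FA, that direction says nothing particular of the list. CRYAB, the small heat shock protein alpha-B-crystallin, dropped from 6.82 ± 0.83 to 1.68 ± 0.39 FPKM (3.90-fold; edgeR adjusted p = 4.1e-06), though HSPB2 on the other strand covers 20.6% of its exonic bases. HSPB1, the small heat shock protein HSP27, dropped from 164.4 ± 35.8 to 75.8 ± 5.5 FPKM (2.17-fold; edgeR adjusted p = 5e-05). Their log2 fold changes were -1.96 and -1.12, against -2.54 for MT2A, and the differences between genes were not tested.

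MT2A is known as an acute phase gene that IL-6 induces through STAT3 in the liver. Of 16 genes of this response, on a list chosen with earlier results of these data known, 7 were in the table. Of these, 6 fell and LCN2 rose, against 74.5% lower among all listed genes, so that share says nothing particular of the list. The share of all measured genes that reached the table is not known here, so 7 of 16 has no background to be set against. The same holds for the counts of the other lists. The median authors' log2 fold change of the 7 was -1.70, against -1.22 over all listed genes and -1.36 over the lower ones. IL6 itself, named after its values were seen, had 5.33, 6.55 and 6.34 FPKM in control and 1.53, 2.21 and 1.601 with FA (3.38-fold lower; edgeR adjusted p = 8.4e-06). SOCS3, the STAT3-induced feedback inhibitor and likewise named after its values were seen, had 11.9, 18.2 and 18.3 FPKM in control and 6.20, 4.88 and 3.76 with FA (3.26-fold lower; edgeR adjusted p = 1.1e-05). In both, as in 100% of the listed genes, the groups did not overlap, and control 1 was the lowest control library.

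The serum amyloid genes SAA1 and SAA2 fell 4.48-fold and 5.68-fold, the second close to the 5.82-fold of MT2A. SERPINA3, an acute phase protease inhibitor, fell 4.14-fold, and the transcription factor gene JUNB 2.36-fold (edgeR adjusted p at most 7.2e-06 for these 4 genes). SAA1 and SAA2 are near-identical and may share reads, and exonic bases are shared with other genes in SERPINA3 (31.8% with AL049839.2), IL6 (20.7% with an antisense gene) and JUNB (14.2% with HOOK2 on the other strand). Of 13 glucocorticoid receptor targets, another class that responds to an inducer of MT2A, none was listed.

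Depth recovered from counts and FPKM ran from 39900000 to 50900000 fragments, the groups overlapping, of which 1.34% to 1.68% fell in the listed genes. Of 25 markers of epithelial carcinoma, fibroblasts, leukocytes, endothelium and red cells, COL1A1 was in the table, so the labelled cell type could not be checked from these genes.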

How the data were processed

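Polyadenylated RNA of 6 SK-OV-3 libraries was sequenced, per the labels' protocols. The submitters' processing notes name GRCh38 as genome build. No aligner, counting tool, strand setting or test is named in the sources used here. Per the file headers, the deposited table gives raw counts and FPKM per gene and library, and an FDR (an adjusted p-value) and a log2 fold change made by the authors.

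Of 459 genes, 399 matched GENCODE release 29 by identifier. Library depth was recovered from counts over FPKM of 180 genes that reached 200 counts in all libraries, and its scale from 16 genes with a single transcript. The whole table was fitted in edgeR 4.0.16 under R 4.3.3 (quasi-likelihood test on counts, group as the only term, recovered depth as library size, Benjamini-Hochberg adjustment, threshold 0.05), after the script was tested on simulated data. The standard error is the absolute log2 fold change over the square root of F. Exact tests used scipy 1.17.1, and profiles a prior of 0.5 counts. Replicate libraries differed by more than sampling noise (chi-square per degree of freedom at least 7.09).

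The genes and the 9 lists were chosen with earlier results of these data known. Named genes are both metallothioneins, from each list the 4 or fewer members with the smallest FDR, and the 3 nearest profiles of each, apart from those said to be named later. Alternatives were DESeq2 1.42.0, limma 3.58.1 on log2 of FPKM with 0.1 or 1 added, other scalings, a filter on low counts, a replicate block, and leaving out each library.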

Additional observations from a re-analysis of the deposited data

How the results depend on the processing

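Across 14 alternatives each (scaling, tool, pseudocount, filter, replicate block and left-out libraries), MT2A and MT1X stayed lower and past the threshold. The main fit and each fit without a single library called all 459 listed genes, which the authors' limits had already selected. Passing the threshold there was nearly fixed in advance and does not set the pair apart. Log2 fold changes ran from -2.68 to -1.30 for MT2A (largest adjusted p 2.4e-05) and from -2.21 to -0.80 for MT1X (largest adjusted p 0.038), the smallest falls coming from TMM over the listed genes. Without single libraries they ran from -2.68 to -2.44 and from -2.21 to -1.77. The difference between FA and control in the log2 ratio of MT2A to MT1X stayed below 0 in 9 alternatives, of which 1 took FPKM in place of counts (-0.68 to -0.28, exact permutation p from 0.1 to 0.4). None passed the threshold of 0.05, and none could, since 3 libraries against 3 cannot go below 0.1 and fewer libraries cannot go lower. In place of 459 listed genes, TMM called 198, of which 81 were lower, and DESeq2 size factors called 203, of which 86 were lower, since scaling on these genes alone centres the typical listed gene by construction.

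Titles share numbers 1 to 3, but deviations of same-numbered libraries correlated at 0.015, 0.11 and -0.16 across 418 genes, and not every library was closest to its own number, so the numbers were not taken as pairs. With a replicate block the log2 fold changes were -2.54 for MT2A and -2.06 for MT1X, the difference in the log2 ratio was -0.46 (exact test p = 0.25, the smallest 3 pairs allow), and 459 genes were called. Depth limits MT1X more than MT2A, at 29 to 50 counts with FA against 638 to 669.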
